A study of Apostichopus japonicus with 3 samples.

Results

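The enzymes that move single carbon units through methionine, betaine, serine and folate were followed in the intestine of the sea cucumber Apostichopus japonicus. The data are read counts on isotigs, which are transcript sequences assembled from the animal's own reads with no genome. An isotig was included when the text of its best protein match named an enzyme of these pathways, or when it was on a list of 6 isotigs. That list was selected on the RPKM ratios between the stages in earlier results of these data, so the values of its members are a description. This gave 18 of 20712 isotigs. The text rule found 17 of them, and the list added isotig13269, whose match reads phosphoglycerate dehydrogenase-like. One of the 17, isotig13162, matched a homocysteine-responsive protein of the endoplasmic reticulum and not an enzyme of these pathways. It was kept as the rule gives it, which leaves 17 enzyme isotigs.

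In summer this echinoderm enters a dormancy called aestivation, during which it does not feed and its intestine regresses. The series holds 1 library of intestine mRNA for each of 3 stages, which are non-aestivation, deep aestivation and the arousal that ends it. The design text of the series names at least 15 individuals for each stage without saying whether a library pools them. No strain, genotype or drug is given in the labels. The libraries held 0.893 to 1.02 M uniquely aligned reads. Without replicates no test was possible, and no p-value is given. Intervals cover counting error only, because 1 library per stage shows no spread between animals. Reads amplified by PCR carry no molecular identifiers and may repeat a molecule, so the intervals may be too narrow even for counting error. In whole intestine, fewer cells of a type and less RNA per cell cannot be told apart.

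Methionine gives its methyl group away through S-adenosylmethionine and leaves homocysteine, which must be methylated again. Animals have a folate route for this, in which methylenetetrahydrofolate reductase makes the methyl donor and methionine synthase uses it, and a betaine route, in which betaine-homocysteine methyltransferase takes a methyl group from betaine and leaves dimethylglycine. Dimethylglycine and then sarcosine are stripped of their methyl groups in mitochondria, and glycine N-methyltransferase makes sarcosine from glycine while using up S-adenosylmethionine. Serine, made from a glycolytic intermediate by phosphoglycerate dehydrogenase, phosphoserine aminotransferase and phosphoserine phosphatase, is the main source of carbon units for folate. In vertebrates the betaine route is known mainly from liver and kidney.

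The stage of each table follows the sample labels. File names and labels disagree for a pair of samples, since the samples labelled non-aestivation and arousal each have a table named with the code of the other. Directions between these libraries rest on the labels. Statements that deep aestivation was above or below both other libraries hold under either reading.

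Gut transcripts were present in each library. Of 35 isotigs matching the list of gut digestive markers, 31 had reads in the non-aestivation library, 33 in deep aestivation and 32 in arousal. Their summed level was 2769, 4085 and 3242 RPM in that order, where RPM is reads per 1000000 aligned reads. Of 41 muscle isotigs 34, 34 and 32 had reads in stage order, and they summed to 2100, 1535 and 1400 RPM. Nerve markers had reads on 34, 35 and 32 of 37 isotigs and summed to 836, 1289 and 910 RPM. Gonad markers had reads on 16, 20 and 14 of 22 isotigs and summed to 204, 246 and 177 RPM. No isotig matched the coelomocyte markers. The part of such shifts in the values below was not tested.

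An isotig is called higher or lower here when its log2 ratio of RPKM + 0.5 was at least 2-fold and the counting interval of its ratio of read shares, set at an error rate of 0.001, excluded equal levels. RPKM is reads per kilobase of isotig and per 1000000 aligned reads. Of the 18 members, 17 had a mean RPKM of at least 1 and were compared in this way, as were 18352 of all isotigs. In deep aestivation over non-aestivation 5 members were higher, against 5.19% of all isotigs, and 4 were lower, against 4.06%. In arousal over deep aestivation 9 were higher, against 3.37%, and 3 were lower, against 5.31%. In arousal over non-aestivation 8 were higher, against 3.84%, and 2 were lower, against 5.21%. The median log2 ratios of the 17 members were -0.28, 1.55 and 1.61, and those of all isotigs 0.16, -0.16 and -0.04. The members were proposed with these ratios in view, so the counts describe them and support nothing. Of the 17 members, 14 were called in at least 1 comparison and 3 in none. The matching share of all isotigs is not given here, so nothing is read from that count.

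Members went both ways around deep aestivation. The level in deep aestivation was the highest of the 3 stages in 6 of these 17 members and the lowest in 10, where over all isotigs it was the highest in 42.2% and the lowest in 25.0%. These positions take no account of counting error. The highest include isotig13162, which is not a pathway enzyme and was called in no comparison. The lowest include isotig10866, isotig02572 and isotig04739, with 0 reads in deep aestivation. Isotig13777, isotig13085 and isotig13783 are also among the lowest, and were not called between deep aestivation and non-aestivation. By the call, 3 members were higher in deep aestivation than in both other libraries, where 1.95% of all isotigs were. These were a betaine-homocysteine methyltransferase, glycine N-methyltransferase and dimethylglycine dehydrogenase. Another 4 were lower than in both, where 1.16% of all isotigs were. These were methylenetetrahydrofolate reductase, phosphoglycerate dehydrogenase, phosphoserine phosphatase and a homocysteine S-methyltransferase-like isotig. Apart from that last isotig, the members named here are the 6 listed isotigs, which were selected on these ratios. Their excess over the shares of all isotigs therefore follows from the selection and says nothing about the pathway.

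**Figure D1:**
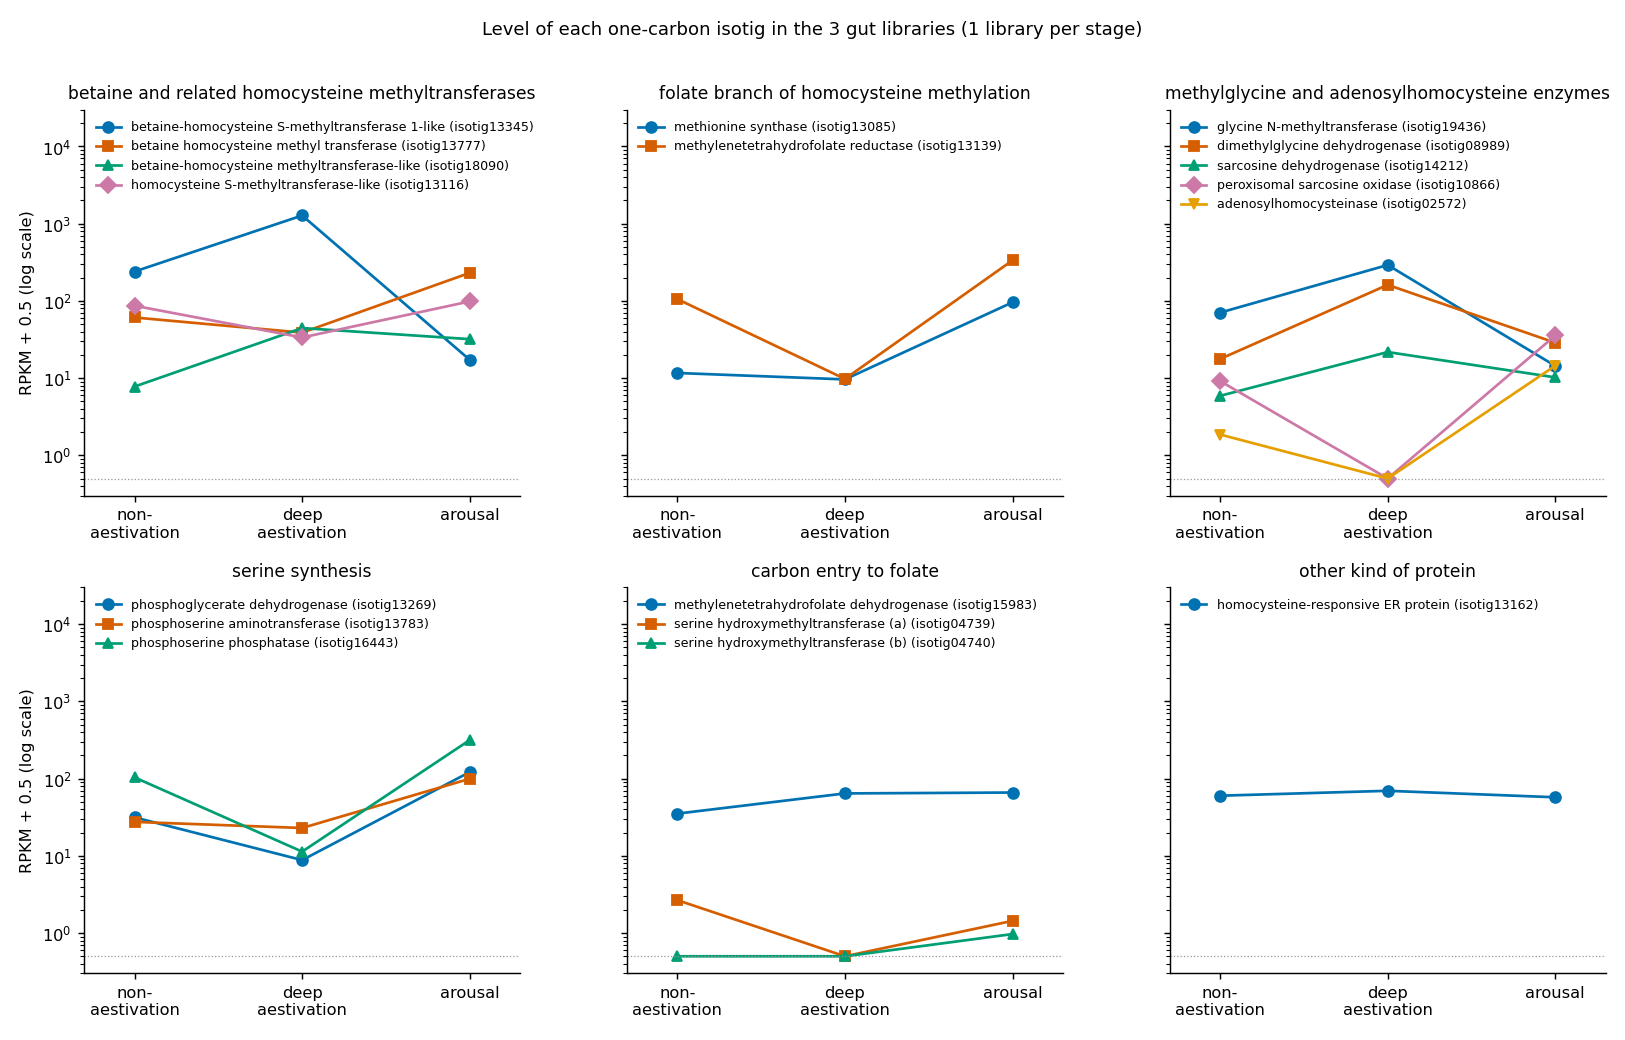
RPKM + 0.5 on a log scale (y axis) of each of the 18 isotigs in the non-aestivation, deep aestivation and arousal libraries (x axis), 1 library per stage, in a panel per role; the dotted line at 0.5 marks 0 reads. Isotig13345, glycine N-methyltransferase and dimethylglycine dehydrogenase peak in deep aestivation, where both isotigs of the folate branch and all 3 of serine synthesis are at their lowest.

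The betaine route was held by isotigs that moved apart. Isotig13345, matching betaine-homocysteine S-methyltransferase 1-like, had 557 reads in the non-aestivation library, 2594 in deep aestivation and 36 in arousal. Its level was 239, 1276 and 16.7 RPKM in that order, so it was the most abundant member in non-aestivation and in deep aestivation but not in arousal. It was 5.33-fold higher in deep aestivation than in non-aestivation (95% counting interval 4.86 to 5.86). In arousal it was 76.3-fold lower than in deep aestivation (54.9 to 109) and 14.3-fold lower than in non-aestivation (10.2 to 20.6). Reads covered 93.8%, 94.9% and 52.6% of its 2277 bases in stage order, so reads were spread over nearly the whole isotig where it was abundant. Among 18352 isotigs its log2 ratio in arousal over deep aestivation was the 28th lowest.

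Isotig13777 matched a sea urchin betaine homocysteine methyl transferase and went the other way. It had 114 reads in the non-aestivation library, 63 in deep aestivation and 401 in arousal, or 60.5, 38.3 and 230 RPKM, and reads covered 73.1%, 63.8% and 94.8% of its bases. The arousal library stood apart, at 6.01-fold above deep aestivation (4.60 to 7.97) and 3.81-fold above non-aestivation (3.08 to 4.73). Deep aestivation was 1.58-fold lower than non-aestivation (1.15 to 2.18), under the 2-fold needed for a call. A shorter isotig with such a match, isotig18090, had 7, 37 and 28 reads in stage order, or 7.26, 44.0 and 31.4 RPKM, over 28.8%, 79.6% and 73.4% of its 943 bases. It was 6.05-fold higher in deep aestivation (2.66 to 16.1) and 4.33-fold higher in arousal (1.85 to 11.7) than in non-aestivation. Between arousal and deep aestivation isotig18090 was not called, with a log2 ratio of -0.48. The match texts do not tell whether these isotigs are separate genes or variants of 1 gene.

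Isotig13116 matched a zebrafish homocysteine S-methyltransferase-like protein, whose methyl donor the match does not give. Its 274 reads in the non-aestivation library, 92 in deep aestivation and 288 in arousal made deep aestivation the lowest stage, at 86.1, 33.1 and 97.9 RPKM in stage order, with 84.7%, 59.3% and 89.8% of its bases covered. Deep aestivation was 2.60-fold below non-aestivation (2.05 to 3.33), and arousal 2.96-fold above deep aestivation (2.33 to 3.78). Arousal and non-aestivation were 1.14-fold apart (0.961 to 1.35), an interval that includes equal levels.

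The folate route had its highest level in arousal. Methionine synthase (isotig13085), the cobalamin enzyme that methylates homocysteine from methyl-folate, had 42 reads in the non-aestivation library, 30 in deep aestivation and 332 in arousal. In RPKM these were 11.1, 9.12 and 95.3. Arousal was 10.5-fold above deep aestivation (7.19 to 15.7) and 8.55-fold above non-aestivation (6.19 to 12.1), while deep aestivation and non-aestivation did not differ beyond counting error, with a log2 ratio of -0.28. Coverage of the isotig was 41.6%, 30.5% and 95.3% in stage order.

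Methylenetetrahydrofolate reductase (isotig13139), which commits folate carbon to methionine, differed between all 3 libraries. It had 312 reads in the non-aestivation library, 24 in deep aestivation and 918 in arousal, or 105, 9.25 and 334 RPKM, over 90.8%, 34.6% and 96.4% of its bases. Deep aestivation was 11.4-fold below non-aestivation (7.49 to 18.0). Arousal was 36.1-fold above deep aestivation (24.1 to 56.7) and 3.18-fold above non-aestivation (2.80 to 3.63). The log2 ratio of arousal over deep aestivation, 5.10, was the 41st highest of 18352. Both isotigs of the folate route together held 346 RPM in the non-aestivation library (exact 95% binomial interval 311 to 384). The same sum was 60.5 RPM in deep aestivation (45.4 to 78.9) and 1323 RPM in the arousal library (1251 to 1398).

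Ratios between members of the same library do not depend on how libraries are scaled to each other. By RPKM, the ratio of isotig13345 to isotig13777 was 3.96 in non-aestivation (3.23 to 4.88) and 33.3 in deep aestivation (26.0 to 43.5). The arousal library had a ratio of 0.0727 (0.0502 to 0.102). In arousal isotig13777 was thus the higher of the pair, 13.8-fold (9.77 to 19.9). Set against methionine synthase, isotig13345 was 21.5-fold higher in non-aestivation (15.7 to 30.1) and 140-fold higher in deep aestivation (97.8 to 208). In arousal it was the lower of that pair, by 5.70-fold (4.03 to 8.28). The ratio of isotig13777 to methionine synthase moved less, at 5.43, 4.20 and 2.41 in stage order.

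**Figure D2:**
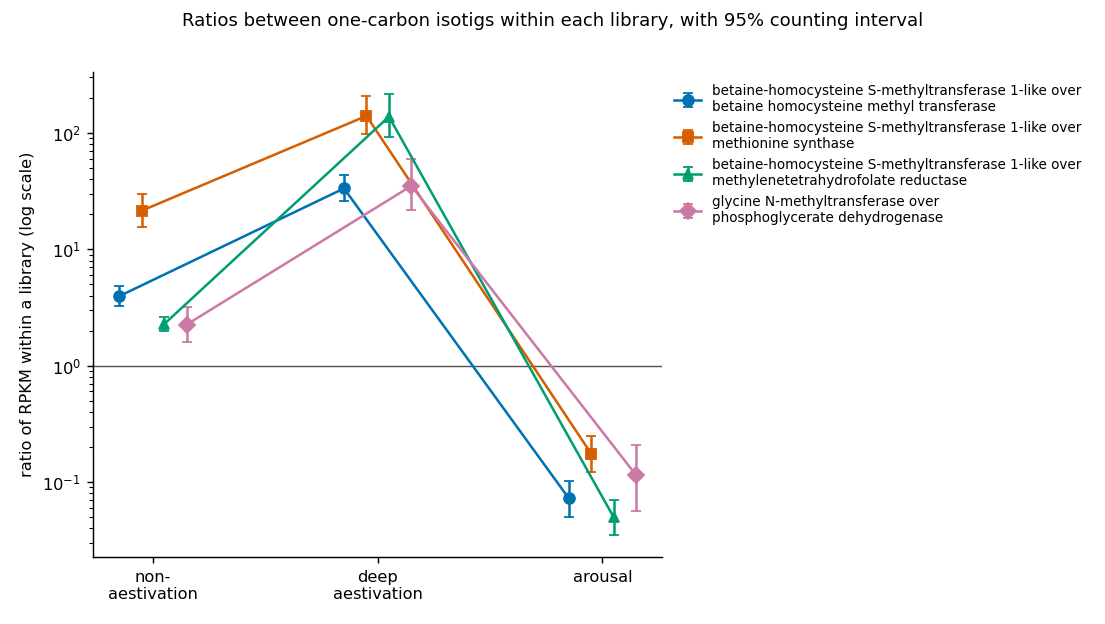
Ratio of the RPKM of 2 isotigs within each library (y axis, log scale) in non-aestivation, deep aestivation and arousal (x axis), with 95% counting intervals as bars and a line at equal levels. Each of the 4 ratios is highest in deep aestivation and below 1 in arousal. That of isotig13345 to isotig13777 is 33.3 and 0.0727. All 4 numerators are listed isotigs, isotig13345 more than once, so this shared pattern was favoured by the selection on ratios between the stages.

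Over the 5 isotigs that match an enzyme methylating homocysteine, the summed level was 404 RPKM for the non-aestivation library, 1401 for deep aestivation and 472 for arousal. Isotig13345 made up 59.2%, 91.1% and 3.55% of these sums. The share of isotig13777 was 15.0%, 2.73% and 48.8%, and that of methionine synthase 2.76%, 0.651% and 20.2%. The summed level was thus similar in arousal and non-aestivation, with isotig13345 the leading isotig in non-aestivation and isotig13777 in arousal.

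**Figure D3:**
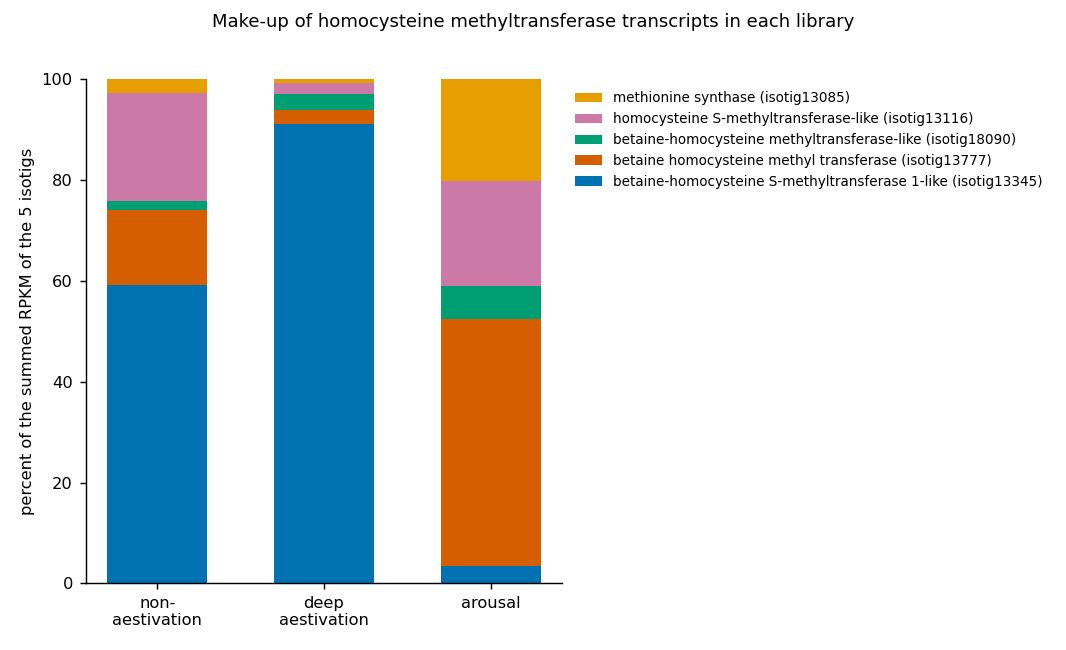
Share of each of 5 homocysteine methyltransferase isotigs (coloured segments) in their summed RPKM, in percent (y axis), in the non-aestivation, deep aestivation and arousal libraries (x axis). Isotig13345 fills 91.1% of the bar in deep aestivation and 3.55% in arousal, where isotig13777 holds 48.8%.

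Enzymes that handle the methylated glycines followed isotig13345 in part. Glycine N-methyltransferase (isotig19436), which in vertebrates limits the level of S-adenosylmethionine, had 60 reads in the non-aestivation library, 218 in deep aestivation and 11 in arousal, or 69.9, 291 and 13.9 RPKM, with 76.9%, 82.5% and 44.2% of its bases covered. Deep aestivation was 4.16-fold above non-aestivation (3.11 to 5.63). Arousal was 21.0-fold below deep aestivation (11.5 to 42.6) and 5.04-fold below non-aestivation (2.63 to 10.6). Together with isotig13345 it formed the pair of members lower in arousal than in non-aestivation.

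Dimethylglycine dehydrogenase (isotig08989), which removes a methyl group from the dimethylglycine that the betaine route leaves, had 29 reads in the non-aestivation library, 237 in deep aestivation and 44 in arousal. Its level was 17.2, 161 and 28.2 RPKM and its coverage 35.6%, 75.9% and 60.8%. It was 9.36-fold higher in deep aestivation than in non-aestivation (6.35 to 14.3) and 5.70-fold lower in arousal than in deep aestivation (4.12 to 8.05). Arousal and non-aestivation were not told apart by the call, with a log2 ratio of 0.70. Sarcosine dehydrogenase (isotig14212), the next mitochondrial step, had 9, 31 and 15 reads in stage order, or 5.38, 21.2 and 9.71 RPKM, over 26.2%, 57.3% and 30.8% of its bases. It was 3.94-fold higher in deep aestivation than in non-aestivation (1.83 to 9.42), and its 2.19-fold lower level in arousal (1.15 to 4.36) did not meet the call.

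The remaining isotigs of this group had few reads. Peroxisomal sarcosine oxidase (isotig10866) had 4, 0 and 15 reads in stage order, or 8.66, 0 and 35.1 RPKM, over 39.2%, 0% and 40.3% of its bases. An adenosylhomocysteinase B-like isotig (isotig02572) had 2, 0 and 19 reads, or 1.36, 0 and 14.0 RPKM. Adenosylhomocysteinase clears the product that methyl transfer leaves. Set against a floor of 3 reads in deep aestivation, the arousal level was 4.72-fold higher for the oxidase and 5.98-fold higher for isotig02572. These folds take the arousal reads as exact and are not limits of a counting interval. Both isotigs were called higher in arousal than in deep aestivation. Both of these calls were lost when at least 20 reads over the libraries compared were required, a limit set after seeing the data. Arousal over non-aestivation gave 10.3-fold for isotig02572 (2.48 to 91.0), from 19 against 2 reads. The reads of isotig02572 in arousal covered 11.4% of its 1440 bases and those in non-aestivation 3.4%.

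Each of the 3 isotigs of serine synthesis had its lowest level in deep aestivation and its highest in arousal, although the middle step was not called between deep aestivation and non-aestivation. Phosphoglycerate dehydrogenase (isotig13269), the entry enzyme, had 77 reads in the non-aestivation library, 18 in deep aestivation and 278 in arousal, or 31.0, 8.30 and 121 RPKM, over 69.9%, 25.3% and 94.3% of its bases. Deep aestivation was 3.74-fold below non-aestivation (2.21 to 6.63). Arousal was 14.6-fold above deep aestivation (9.06 to 25.0) and 3.91-fold above non-aestivation (3.03 to 5.10).

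Phosphoserine aminotransferase (isotig13783), the middle step, had 51, 37 and 173 reads in stage order, or 27.0, 22.4 and 99.1 RPKM, over 69.5%, 53.3% and 96.2% of its bases. Deep aestivation and non-aestivation did not differ beyond counting error (log2 ratio -0.26), and arousal was above both, by 4.42-fold over deep aestivation (3.08 to 6.48) and 3.67-fold over non-aestivation (2.67 to 5.12). Phosphoserine phosphatase (isotig16443), which releases serine, had 120, 11 and 339 reads, or 103, 10.8 and 316 RPKM, over 87.5%, 40.7% and 97.7% of its bases. It was lower in deep aestivation, by 9.53-fold against non-aestivation (5.14 to 19.6), 29.1-fold higher in arousal than in deep aestivation (16.1 to 58.9) and 3.06-fold higher in arousal than in non-aestivation (2.48 to 3.80).

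The 3 isotigs together summed to 243 RPM for non-aestivation (213 to 275), 73.9 for deep aestivation (57.2 to 94.1) and 836 for arousal (779 to 897). Their levels relative to each other also varied between the libraries. By RPKM the phosphatase stood above the dehydrogenase by 3.33-fold in non-aestivation (2.48 to 4.49) and 2.60-fold in arousal (2.22 to 3.06), and in deep aestivation the ratio of 1.30 (0.557 to 2.92) included equal levels. The aminotransferase was at 0.871, 2.70 and 0.818 of the dehydrogenase in stage order. It was below the phosphatase in non-aestivation (27.0 against 103 RPKM) and in arousal (99.1 against 316). In deep aestivation it was above the phosphatase (22.4 against 10.8). Against the dehydrogenase, glycine N-methyltransferase was 2.25-fold higher in non-aestivation (1.58 to 3.20) and 35.0-fold higher in deep aestivation (21.7 to 60.3), and 8.73-fold lower in arousal (4.81 to 17.7).

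**Figure D4:**
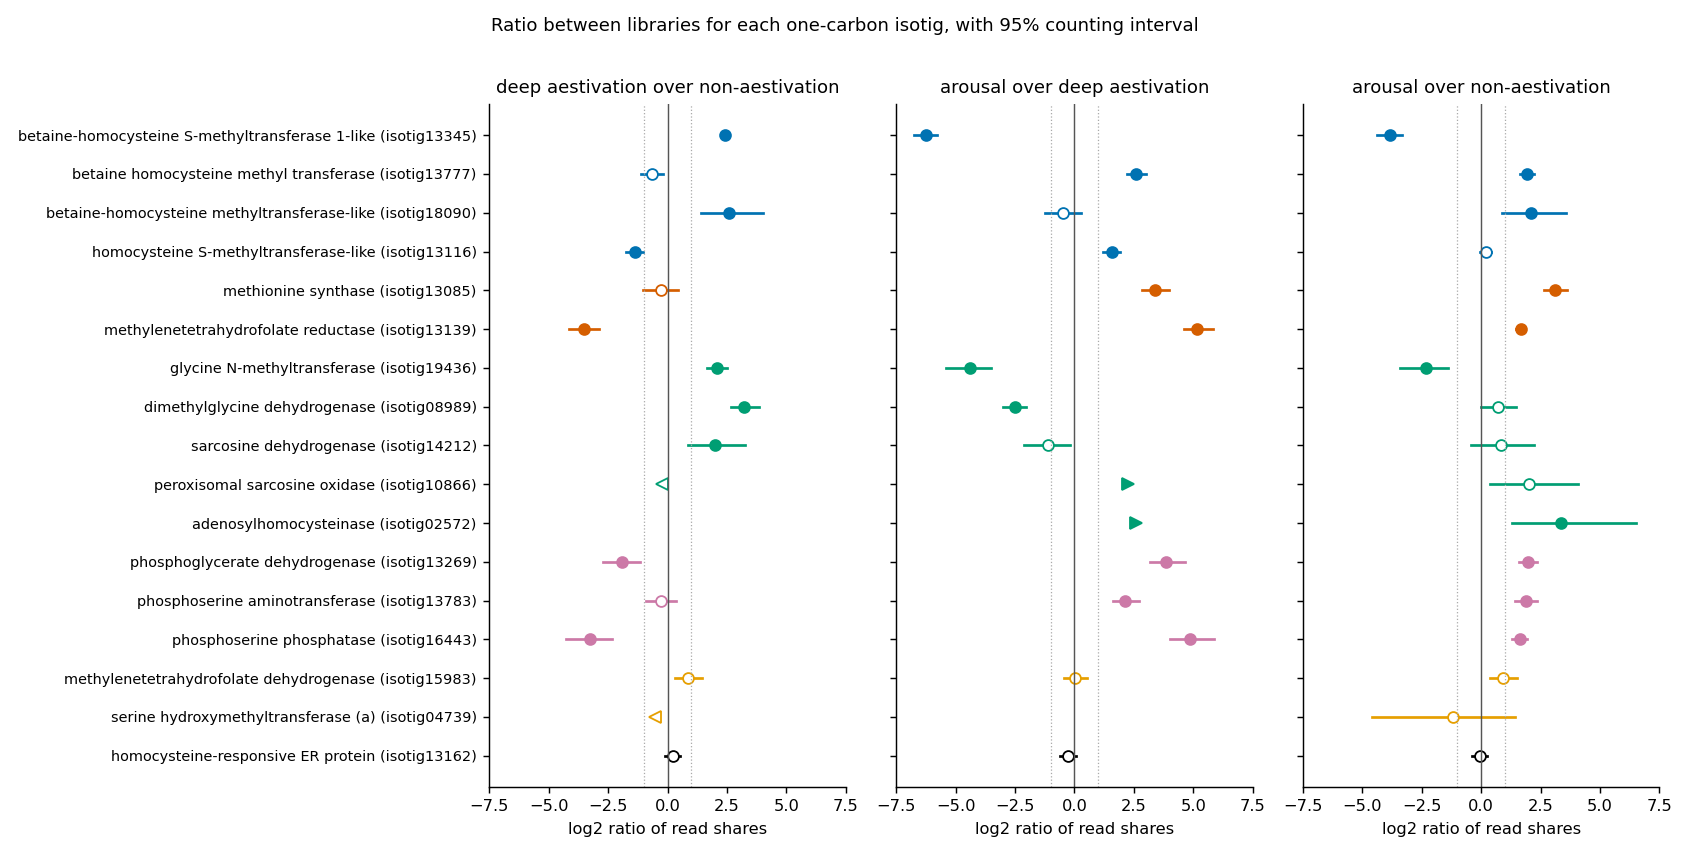
Log2 ratio of read shares (x axis) for 17 isotigs (rows, coloured by role) in deep aestivation over non-aestivation, arousal over deep aestivation and arousal over non-aestivation. Bars are 95% counting intervals, filled symbols met the call and dotted lines mark 2-fold. Triangles are folds against a floor of 3 reads where a library had 0 reads. In arousal over deep aestivation the 3 serine synthesis isotigs lie at 4.42-fold to 29.1-fold higher, opposite to isotig13345 at 76.3-fold lower; an isotig with under 3 reads against 0 has no symbol.

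With the scaling used here, the enzymes that load carbon onto folate were not called in any comparison. Methylenetetrahydrofolate dehydrogenase (isotig15983), which passes carbon between folate forms, had 43 reads in the non-aestivation library, 69 in deep aestivation and 75 in arousal. It was 1.84-fold higher in deep aestivation (1.24 to 2.76) and 1.89-fold higher in arousal (1.28 to 2.81) than in non-aestivation, both under 2-fold. Over totals without the 20 most abundant isotigs, isotig15983 was called higher in arousal than in non-aestivation. Mitochondrial serine hydroxymethyltransferase, which moves the carbon of serine to folate, was matched by isotig04739 with 5, 0 and 2 reads and isotig04740 with 0, 0 and 1. These isotigs share their best match and are 2256 and 2252 bases long. Only uniquely aligned reads were counted, so reads from sequence they share may be missing and their counts are uncertain. Isotig04740 failed the filter on low values. The endoplasmic reticulum protein isotig13162 had 169, 171 and 149 reads in stage order and was called in no comparison.

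Summed over all 18 isotigs the level was 1834 RPM for non-aestivation (1752 to 1919), 4068 for deep aestivation (3937 to 4203) and 3307 for arousal (3192 to 3424). Isotig13345 set the order of these sums. Without it they were 1289, 1163 and 3269 RPM, with arousal the highest and intervals of 1221 to 1361 and 1093 to 1236 for the first pair of stages.

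Neighbouring genes outside the rule were read from 8 lists of related steps, chosen with earlier results of these data known. They hold 30 isotigs, of which 29 passed the filter. In deep aestivation over non-aestivation 5 were higher and 1 lower, against 5.19% and 4.06% of all isotigs. In arousal over deep aestivation 2 were higher and 3 lower, against 3.37% and 5.31%, and in arousal over non-aestivation 4 were higher and 1 lower, against 3.84% and 5.21%. With 29 isotigs a share near these is a count of 1 or 2, so nothing is read from the small counts. The median log2 ratios were 0.47, -0.01 and 0.46, where those of all isotigs were 0.16, -0.16 and -0.04.

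In deep aestivation over non-aestivation, 2 of 3 isotigs in the glycine, serine and threonine list were called higher, and 1 of 2 in the cysteine list. Over all isotigs 5.19% were, and nothing is read from counts in lists this small. Glycine dehydrogenase (isotig17771), the decarboxylating subunit of the glycine cleavage system, had 6 reads in the non-aestivation library, 55 in deep aestivation and 35 in arousal. It was 10.5-fold higher in deep aestivation (4.53 to 29.8) and 6.31-fold higher in arousal (2.63 to 18.4) than in non-aestivation. Cysteine dioxygenase (isotig15022), the first step of cysteine oxidation, had 15, 77 and 31 reads, 5.88-fold higher in deep aestivation than in non-aestivation (3.35 to 11.0) and 2.63-fold lower in arousal than in deep aestivation (1.71 to 4.13). Cystathionine beta-synthase (isotig09187), which takes homocysteine out of the methionine cycle toward cysteine, had 10, 28 and 22 reads and was not called. Aminomethyltransferase (isotig22138), another protein of the glycine cleavage system, was not called either, with 6, 4 and 7 reads (this isotig was chosen with its values known). An isotig matching alanine-glyoxylate aminotransferase 2-like 1 (isotig25754), which its name placed in the glycine list and whose role is not given here, had 8, 28 and 14 reads and was 4.01-fold higher in deep aestivation than in non-aestivation (1.78 to 10.2).

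In the choline list, a choline transporter-like protein (isotig15436) had 4, 29 and 45 reads in stage order. It was 8.30-fold higher in deep aestivation (2.92 to 32.5) and 12.2-fold higher in arousal (4.44 to 46.6) than in non-aestivation. A choline transporter isotig (isotig08606) had 1, 0 and 13 reads, which put arousal 4.09-fold above a floor of 3 reads in deep aestivation. It shares its best match with isotig08605, so reads on sequence they share may be missing. In the cobalamin list 2 of 5 isotigs were called higher in arousal than in non-aestivation, against 3.84% of all isotigs. Nothing is read from counts in a list this small. Both are among 3 isotigs matching transcobalamin I, a cobalamin carrier. Isotig14913 had 183 against 91 reads (2.18-fold, 1.68 to 2.83) and isotig11305 had 24 against 6 (4.33-fold, 1.72 to 12.9). The other transcobalamin I match, isotig11306, had 14 against 4 reads and was not called. All 3 have the same best match, and whether they are parts of 1 gene is not known. Among isotigs of the cobalamin list with at least 20 reads, a methylmalonic aciduria type A match (isotig20674) had the lowest ratios, with 14 reads in arousal and 16 in non-aestivation.

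Users of the methyl group went different ways, with 10 of 11 isotigs past the filter. Protein arginine N-methyltransferase 1, which methylates histones and RNA-binding proteins, had 91 reads in the non-aestivation library, 28 in deep aestivation and 94 in arousal (isotig17158). Deep aestivation was 2.84-fold below non-aestivation (1.84 to 4.50) and arousal 3.17-fold above deep aestivation (2.06 to 5.03). An isoaspartate O-methyltransferase domain protein (isotig16338), of a family known for repair of aged proteins, had 14, 57 and 18 reads and was 4.66-fold higher in deep aestivation than in non-aestivation (2.57 to 9.06) and 3.35-fold lower in arousal than in deep aestivation (1.94 to 6.05). A match text of histone-lysine N-methyltransferase MLL5 placed isotig13395 in this list, and whether its protein has that activity was not tested. Isotig13395 had 191, 183 and 85 reads. It was 2.28-fold lower in arousal than in deep aestivation (1.75 to 2.98) and 2.08-fold lower than in non-aestivation (1.60 to 2.71). Guanidinoacetate N-methyltransferase (isotig16480), the creatine-forming enzyme, had 6, 7 and 9 reads, and in arousal over non-aestivation the highest ratio among isotigs of this list with at least 20 reads (log2 0.65).

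No isotig was called in the lists of polyamines and methionine salvage (3 isotigs), of other folate enzymes (2) or of adenosine removal (1). An ornithine decarboxylase isotig (isotig17749), of the entry step of polyamine synthesis, had 10, 5 and 20 reads and another (isotig14312) 23, 24 and 20. S-adenosylmethionine decarboxylase (isotig14863) had 32, 20 and 21 reads, gamma-glutamyl hydrolase (isotig23743), which trims the tail of stored folate, 5, 12 and 9, and an adenosine deaminase-like isotig (isotig14437) 25, 15 and 15.

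The enzyme that makes S-adenosylmethionine was matched under the name methionine adenosyltransferase, which the rule does not contain, and was added after the match texts had been read. Isotig14883 had 444 reads in the non-aestivation library, 1019 in deep aestivation and 889 in arousal, or 302, 793 and 653 RPKM. It was 2.63-fold higher in deep aestivation (2.35 to 2.94) and 2.17-fold higher in arousal (1.93 to 2.43) than in non-aestivation, and arousal and deep aestivation were not called apart (log2 ratio -0.28). The beta subunit match (isotig13494) had 21, 7 and 15 reads and was not called.

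Gene ontology terms give a second view that the rule did not use. The term one-carbon metabolic process was attached to 24 isotigs, of which 5 are members. Of the other 19, which all passed the filter, 2 were higher and 0 lower in deep aestivation over non-aestivation, against 5.19% and 4.06% of all isotigs. In arousal over deep aestivation 2 were higher and 2 lower, against 3.37% and 5.31%, and in arousal over non-aestivation 2 were higher and 0 lower, against 3.84% and 5.21%. With 19 isotigs nothing is read from counts this small. The called ones were isotig16338, given above, and 3 isotigs named after their values were seen. A match to aldehyde dehydrogenase 1 family member L1 (isotig25354), which releases carbon from formyl-folate as carbon dioxide, had 4 reads in the non-aestivation library, 133 in deep aestivation and 18 in arousal. It was 38.1-fold higher in deep aestivation than in non-aestivation (14.5 to 142) and 7.82-fold lower in arousal than in deep aestivation (4.76 to 13.6). The isotigs isotig21608 and isotig22630, whose matches carry no protein name, had 33, 15 and 116 reads and 26, 10 and 133 reads, so both were highest in arousal, at 7.31-fold (4.25 to 13.5) and 12.6-fold (6.62 to 26.8) above deep aestivation and 3.80-fold (2.56 to 5.78) and 5.54-fold (3.62 to 8.78) above non-aestivation.

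**Figure D5:**
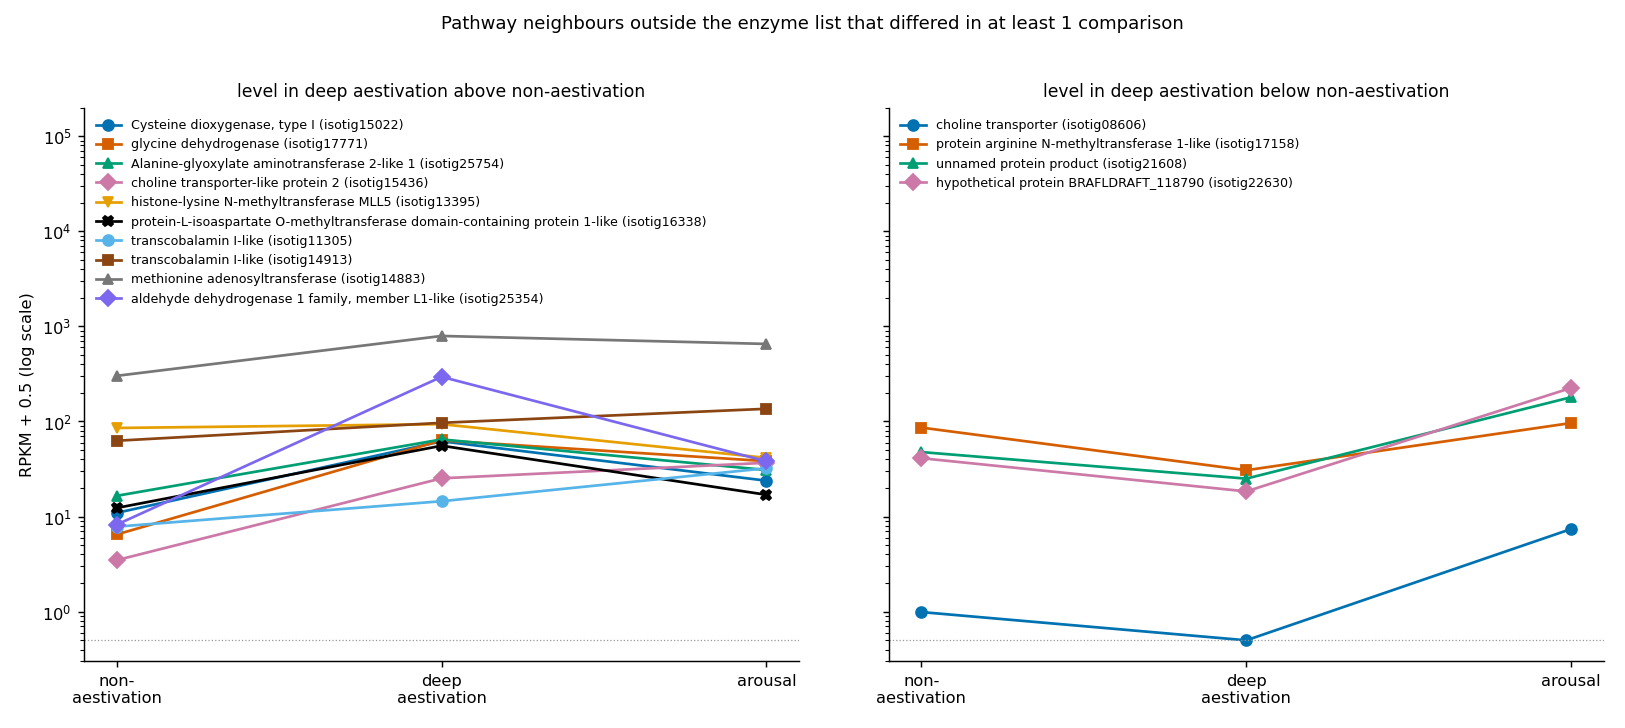
RPKM + 0.5 on a log scale (y axis) in the non-aestivation, deep aestivation and arousal libraries (x axis) for the isotigs outside the rule that were called in at least 1 comparison, split by whether deep aestivation lies above (left) or below (right) non-aestivation; the dotted line at 0.5 marks 0 reads. Methionine adenosyltransferase is the most abundant, at 302, 793 and 653 RPKM, and the aldehyde dehydrogenase L1 match peaks in deep aestivation.

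Likeness was measured over 2467 isotigs whose match has a name, with 50 reads or more and a mean of 5 RPKM or more. The pattern closest to that of methylenetetrahydrofolate reductase was that of another member, phosphoserine phosphatase. Both are among the 6 listed isotigs selected on the RPKM ratios between the stages, so a likeness between them was favoured by the selection. The Euclidean distance of their pairs of log2 ratios (deep aestivation over non-aestivation, arousal over deep aestivation) was 0.39. Next came a lactose-binding lectin (isotig11607, distance 0.76), a cytosolic beta-glucosidase (isotig16411, 1.27), a lactase-phlorizin hydrolase (isotig07134, 1.30) and a match to microneme protein 4 (isotig25359, 1.48). With 3 libraries such likeness is a description of 2 ratios that share the deep aestivation library.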

How the data were processed

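Intestine mRNA was sequenced in 1 library per stage. Each deposited table gives, per the file headers and the authors' readme, the count of reads aligned uniquely to each isotig, the isotig's length, coverage as a percent of that length, RPKM, gene ontology terms and the best protein match. RPKM recomputed from deposited counts, length and the header total differed by a relative 5.08e-15 at most. The submitters' processing notes name CASAVA 1.5. Read length, assembler and aligner were not given in the sources used here. Isotigs not listed in a table were taken as 0 reads. The RefSeq gene table shares 0 identifiers with the isotigs, so no sequences or coordinates are given.

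Ratios used log2(RPKM + 0.5), which understates the change of isotigs with few reads where both libraries have reads. Against 0 reads the ratio is set by the pseudocount and is not a measured change. For isotig10866 in arousal over deep aestivation it was 6.15, and 8.46 with a pseudocount of 0.1, where the fold against the floor of 3 reads was 4.72. Folds are ratios of read shares with exact conditional binomial (Clopper-Pearson) 95% intervals, computed with Python 3.11.15 and scipy 1.17.1. Ratios within a library used reads per base. A fold against 0 reads puts a floor of 3 reads in place of 0. It takes the other count as exact and has no counting interval. Calls were checked on simulated counts that hold read-sampling error alone, with no spread between animals and no PCR repeats. Changes were planted only on the more abundant isotigs. That check therefore says nothing about differences between stages from 1 library each. Members, lists and tests were chosen with earlier results of these data known. Named were all members, all called list isotigs, and the highest and lowest of each list with at least 20 reads. Matches to phosphoglycerate kinase, acetylcholine, antizyme, double-stranded RNA adenosine deaminase and cubilin were kept out of the lists. Alternatives covered pseudocount, scaling, filter, call and stage assignment.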

Additional observations from a re-analysis of the deposited data

How the results depend on the processing

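The 9, 12 and 10 member calls in deep aestivation over non-aestivation, arousal over deep aestivation and arousal over non-aestivation were kept under other pseudocounts (0.1 and 1), median-ratio and upper-quartile scaling, totals without the 20 most abundant isotigs, no filter and a filter at 5 RPKM. Over all isotigs, median-ratio scaling moved the median log2 ratio by -0.12, 0.16 and 0.04 and turned the split of calls to 721 higher and 954 lower, from 952 and 745, in the first comparison, and to 839 and 732, from 619 and 975, in the second. In arousal over non-aestivation the split was 704 and 956, and 896 and 745 over totals without the 20 most abundant isotigs. Of 270 log2 ratios of single members under other pseudocounts and scalings, 1 moved beyond its interval (isotig13345 in deep aestivation over non-aestivation, 2.26 with median-ratio scaling) and 0 changed sign among called ones. Against 0 reads the interval has no outer limit, so a more extreme ratio could not move beyond it. Isotig10866 in arousal over deep aestivation thus counts as unmoved, although it went from 6.15 to 8.46 with a pseudocount of 0.1. At 3-fold the calls of isotig13116 were lost. With 2-fold alone, 7 members were lower in deep aestivation over non-aestivation. With a pseudocount of 0.1 the median in arousal over deep aestivation was 2.14.

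With stages taken from the file names, members called higher and lower were 3 and 9 in deep aestivation over non-aestivation, 4 and 5 in arousal over deep aestivation, and 2 and 8 in arousal over non-aestivation, where all 10 calls change sign by construction. The 8 neighbour lists then gave 3 and 2, 1 and 5, and 1 and 4. Neighbour counts are small and moved easily. In deep aestivation over non-aestivation the lower count was 2 at 2-fold alone and 0 at 3-fold. In arousal over deep aestivation the higher count was 1 at a filter of 5 RPKM and with at least 20 reads (chosen after seeing the data), 4 with a 95% interval and 5 at 2-fold alone, and the lower count was 5 at 2-fold alone and 1 at 3-fold. In arousal over non-aestivation the higher count was 8 with a 95% interval and 10 at 2-fold alone, and the lower count was 0 at 3-fold and with each of the 3 other scalings.

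Summed RPM in stage order were 2532, 5928 and 5063 over totals without the 20 most abundant isotigs, 1669, 3877 and 3149 without isotig13162, and 1289, 1163 and 3269 without isotig13345. No paired analysis was possible because each stage has 1 library. Leaving out a library leaves its stage empty and was not run. Depth limits isotigs with few reads, such as isotig14212 with 15 reads in arousal and 31 in deep aestivation (2.19-fold lower, 1.15 to 4.36).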
